A study of Mus musculus with 2 samples.

Results

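Among the CD31+CD44+ cells from the caudal part of mouse embryos at E10.0, 84 of 2139 were cycling arterial endothelial cells (AECs). They were picked by a fixed series of expression limits in CPM, a gene's unique molecular identifiers (UMIs, each standing for 1 captured transcript) scaled to a fixed total per cell. A cell needed at least 100 CPM of Cdh5, the endothelial cadherin, which left 835 cells, and at least 200 CPM of Gja5, the arterial connexin, which left 484. Summed C1qa, C1qb and C1qc below 500 CPM took away no further cell. Leaving out cells with UMIs of both Gfi1 and Neurl3, markers of hemogenic endothelium, left 437, and asking for at least as many UMIs of the arterial genes Tmem100, Htra1 and Ltbp4 as of the plexus genes Kitl, Esm1, Igfbp3 and Vwa1 left 273 AECs. The 84 members had Mki67, Top2a and Cenpf at a summed 200 CPM or more, and the other 189 AECs, below that value, were the non-cycling cells they were compared with.

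The cells came from cKO embryos (Vec-Cre;Nupr1 fl/fl, in which the Cdh5 promoter drives Cre, so that Nupr1 is deleted from the endothelial stage on) and from littermate controls (Nupr1 fl/fl and Nupr1 fl/+, labelled WT in the files). In each of 2 replicates, cells of the genotypes carried different hashtags and shared 1 lane of a 10x Genomics chip, so there were 4 pools, each of 1 genotype in 1 replicate. The number of embryos in a pool is not given in the sources used here, and p-values measure the spread between pools, not between embryos. Control replicates 1 and 2 held 32 and 23 members, and cKO replicates 1 and 2 held 17 and 12.

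Arteries of the embryo form early and their endothelium divides while the vessel widens and while some of its cells turn hemogenic. The dividing cell copies its DNA in S phase with MCM helicases, polymerases and nucleotide enzymes, makes histones for the new chromatin, and then in G2 and M phase builds a spindle from tubulin, kinesins and the mitotic kinases. Cyclin-dependent kinases drive these steps, and inhibitors such as Cdkn1c (p57) hold them back.

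The values that chose the members are given as a description. The median member had 849 CPM of the 3 genes (26.5 UMIs) and the highest 5769 CPM, and 67 of the 84 had UMIs of all 3. The lowest members stood at 200.1, 201.03 and 211.7 CPM and the highest cells below at 191.8, 188.4 and 186.1 CPM. No member passed on a single UMI and 3 passed on 2 or 3 UMIs, while 25 lay between 200 and 500 CPM. Of the non-cycling cells, 110 of 189 had no UMI of the 3 genes and 17 lay between 100 and 200 CPM. In the UMI sums of the pools Mki67, the Ki-67 proliferation antigen, was at 455, 316, 348 and 247 CPM in cycling cells (control replicates 1 and 2, then cKO replicates 1 and 2, the order kept throughout) and between 7.54 and 9.11 CPM in non-cycling cells.

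Arterial genes that the limits did not use were detected in most members, whereas the proposed markers Tac2 and Krt8 were not. Gja4, the other arterial connexin, had a UMI in 83 of 84 members (98.8%), Efnb2, the arterial ephrin ligand, in 82, Hey1, a Notch target, in 77 and Dll4, a Notch ligand, in 76. In the 666 cells of these libraries at or over the C1q limit, which should lack these genes and had a median of 58047 UMIs against 28094.5 in members, the shares were 7.66% for Gja4 and 1.35% for Dll4. Kdr, a general endothelial gene, had a UMI in 2.55% of the same 666 cells. That contrast therefore sets endothelial cells apart, and the shares in plexus endothelial cells were not computed. Nr2f2 and Aplnr, which mark veins, had a UMI in 3 and 4 members. Tac2, a tachykinin precursor, had 0 UMIs in all 273 AECs, and 196 of its 198 UMIs in the series lay in 1 cell. Krt8, a keratin, had 5 UMIs in 4 members and 8 UMIs in 8 non-cycling cells. The cells are therefore described by Gja5 and the 3 proliferation genes alone.

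Markers of other cell types were low in both classes. Macrophage genes summed to between 8.99 and 47.3 CPM in the cycling sums and between 24.8 and 47.1 CPM in the non-cycling sums, and granulocyte-monocyte genes to at most 10.02 and 15.9 CPM. Erythroid genes, 6 of 9 of them at 0 in the cycling sums, reached 32.9 and 75.4 CPM, epithelial genes 15.8 and 3.10 CPM, and megakaryocyte genes ranged from 4.49 to 96.6 and from 7.49 to 94.9 CPM. Mesenchymal and muscle genes stood at 55.1, 22.9, 338 and 87.2 CPM in cycling cells against 50.6, 175, 195 and 117 CPM, and Tagln made up 245 of the 338 CPM in cKO replicate 1. No barcode was shared between the libraries. Scrublet called 7 of the 2139 cells doublets (0.327%), none of them an AEC. At so low a rate it may not have worked, and no doublet was removed beyond those of mixed hashtags that the authors had left out. A Gfi1 UMI was seen in 6 members and a Neurl3 UMI in 16. Xist had a UMI in 32 of 32, 23 of 23, 0 of 17 and 10 of 12 members, and a chromosome Y gene in 14 of 17 members of cKO replicate 1 and in none elsewhere, so the pools differed in the sex of their cells and, in cycling AECs, sex and genotype cannot be fully told apart.

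More UMIs were recovered per member than per non-cycling cell. The median was 28537, 29659, 25145 and 30568.5 UMIs per cell, against 18520, 24591, 21593.5 and 22288. The cycling median was higher in 4 of 4 pools, by 1.31-fold in the geometric mean (0.39 on the log2 scale; two-sided exact paired permutation test, p = 0.125, the smallest that 4 pairs allow). Without the cells that had any Gfi1 or Neurl3 UMI the difference was 0.04 on the log2 scale (exact permutation p = 1). With every cell thinned to 10000 UMIs, members had 68 more genes detected (exact permutation p = 0.25). The pool sums held between 379079 and 1317133 UMIs.

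**Figure D1:**
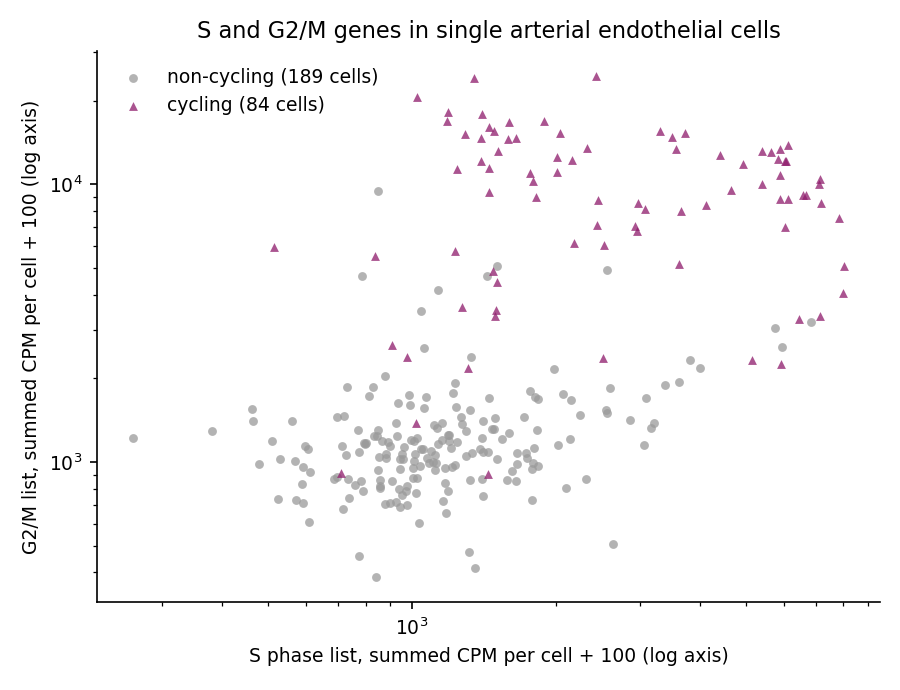
Each point is 1 AEC, with the summed CPM of the S phase list on the x axis and of the G2/M list on the y axis, both plus 100 on log axes. Triangles (84 cycling cells) lie mostly above the circles (189 non-cycling cells), while some circles reach as far to the right as the triangles.

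Most members had more UMIs of the G2/M list than of the S phase list, but some were high in both. A member of control replicate 1 had 7733 CPM of the S phase list and 7461 CPM of the G2/M list. The lists differ in length, so this comparison does not assign a phase to a cell. Lists of 40 S phase and 50 G2/M genes, neither holding Mki67, Top2a or Cenpf, were summed per cell. The G2/M list had a median of 9686 CPM in members (804 to 24530) and 1021 CPM in non-cycling cells (284 to 9377). The S phase list had medians of 2332 CPM (414 to 7933) and 986 CPM (160 to 6745), and 75 of 84 members (89.3%) had more G2/M than S phase UMIs. Among the 189 non-cycling cells 17 reached the members' median of the S phase list and none that of the G2/M list (0 of 189). In the other direction, 2 members had a G2/M sum at or below the non-cycling median, and 7 an S phase sum at or below it. At 10000 UMIs per cell the medians were 97 G2/M and 24 S phase UMIs in members and 10 and 10 in non-cycling cells. As the plot of both lists shows, the limit on Mki67, Top2a and Cenpf set apart cells high in G2/M genes, some of them also high in S phase genes. It left a group of cells with S phase genes on the non-cycling side.

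Across the transcriptome, edgeR's quasi-likelihood test on pool sums, with the pool as a block, called 1069 of 7253 genes (14.7%) different between cycling and non-cycling AECs at an adjusted p under 0.05. Of these, 608 (8.38%) were higher and 461 (6.36%) lower in cycling cells. Genes used by the limits were left out of all counts. The rises were the larger changes: 284 genes rose and 43 fell by over 2-fold, and 110 rose by over 8-fold. DESeq2 called 459 genes (361 higher and 98 lower), the fit without the pool block 431 (367 and 64), and sums of cells thinned to 10000 UMIs 486; of the 1069 genes, 414, 431 and 453 were among these. The median log2 fold change of the genes called lower was −0.46. Since Mki67, Top2a and Cenpf are themselves mitotic genes, the genes of the same phases describe what the limit picked, and nothing further is read from their number.

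All 45 tested genes of the G2/M list were higher in cycling AECs, with a median log2 fold change of 3.96 (the median over all genes was −0.02). Of the 12 largest called rises among genes at a mean of 50 CPM or more, 11 are given here and the histone gene Hist1h3c is given below. Esco2, a cohesin acetyltransferase, was at 74.2, 51.5, 55.4 and 42.4 CPM in cycling cells and at 0, 0, 0 and 0.759 CPM in non-cycling cells, a log2 fold change of 7.13 ± 0.49 (SE; adjusted p = 8.6e-18). Ckap2l, a spindle protein, was at 112, 98.8, 76.5 and 84.8 CPM against at most 0.936 CPM, or 6.75 ± 0.36 on the log2 scale. In both genes the 2 classes did not overlap in any pool. Nusap1 (6.61 ± 0.28), a microtubule binder, and Prc1 (6.01 ± 0.25), which bundles the central spindle, followed. Aurkb, the kinase of the chromosomal passenger complex, rose by 5.87 ± 0.31, Nuf2 of the kinetochore by 5.87 ± 0.44, and the motors Kif4, Kif11 and Kif2c by 5.84, 5.65 and 5.63 on the log2 scale. Cep55, a protein of abscission, and Sgol2a, a protector of centromeric cohesion, rose by 5.42 and 5.33. With non-cycling sums near 0, these fold changes lean on the fit's prior count.

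The 4 genes of the list with the smallest adjusted p were Hmgb2, Ube2c, Cks2 and Tpx2. Hmgb2, a chromatin protein, was at 2064, 1831, 1551 and 1706 CPM in cycling cells against 286, 267, 253 and 265 CPM, with no overlap (2.70 ± 0.07 on the log2 scale). Ube2c, the ubiquitin-conjugating enzyme of the anaphase-promoting complex, was at 591, 558, 433 and 938 CPM against 21.5, 20.9, 7.76 and 28.1 CPM (4.91 ± 0.13). Cks2 and Tpx2, a cyclin-dependent kinase subunit and a spindle assembly factor, rose by 2.73 ± 0.10 and 4.46 ± 0.17.

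Promoters of the G2/M list often held a cell cycle homology region (TTTGAA), the element bound by the complex that represses these genes outside the cycle, and a CCAAT box. In windows from 250 bases before to 50 bases after the start (RefSeq, GRCm38.p6, both strands searched), TTTGAA stood in 29 of 39 G2/M list promoters (74.4%), in 5 of 29 of the S phase list (17.2%) and in 13.7% of the 5591 promoters of tested genes. CCAAT stood in 79.5% of the G2/M list, 65.5% of the S phase list and 43.0% of tested genes. The E2F forms TTTCCCGC and TTTGGCGC stood in 20.7% and 17.2% of the S phase list, in 2.56% and 0% of the G2/M list, and in 2.75% and 1.29% of tested genes. Among the 608 genes called higher, 28.0% of the 471 promoters held TTTGAA, and among the 461 called lower 12.9% of 349. The 4 promoters below were chosen because these named G2/M genes hold both elements in the 100 bases before the start. Capitals mark TTTGAA and CCAAT or their reverse complements, TTCAAA and ATTGG, written 5′ to 3′ on the gene's strand. Ckap2l lies on the minus strand (chr2:129297213-129297312) and the others on the plus strand: Kif11 (chr19:37376282-37376381), Hmgb2 (chr8:57511743-57511842) and Ube2c (chr2:164769829-164769928).
Ckap2l: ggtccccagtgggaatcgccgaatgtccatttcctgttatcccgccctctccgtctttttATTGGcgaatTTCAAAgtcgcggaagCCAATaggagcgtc
Kif11: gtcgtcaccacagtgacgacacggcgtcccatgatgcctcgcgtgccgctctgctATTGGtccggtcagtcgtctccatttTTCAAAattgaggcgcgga
Hmgb2: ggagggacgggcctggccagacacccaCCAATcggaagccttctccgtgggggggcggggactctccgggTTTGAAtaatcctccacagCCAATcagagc
Ube2c: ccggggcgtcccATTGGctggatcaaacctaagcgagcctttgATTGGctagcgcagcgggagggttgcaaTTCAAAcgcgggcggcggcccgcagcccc
The first base of the TTTGAA element lies 30, 19, 30 and 29 bases before the start in Ckap2l, Kif11, Hmgb2 and Ube2c. A match of letters is a description and not a test of binding.

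Of the S phase list, 33 of 39 tested genes were higher and none lower, with a median log2 fold change of 1.26. Tyms, thymidylate synthase, was at 311, 276, 266 and 339 CPM in cycling cells against 83.3, 64.5, 62.0 and 63.0 CPM (4.25-fold, 2.09 ± 0.12 on the log2 scale, adjusted p = 8.2e-21). Rad51ap1, a homologous recombination factor, rose by 4.04 ± 0.37, Clspn, a replication checkpoint adaptor, by 2.68 ± 0.22, and Nasp, a histone chaperone, by 1.22 ± 0.11. The 6 genes that were not called included the helicase subunits Mcm2 (0.08), Mcm4 (0.19) and Mcm6 (0.38), Cdca7 (0.23), a Myc target, and the uracil glycosylase Ung (−0.08), all as log2 fold changes. Other helicase subunits were called, among them Mcm5 at 0.83 and Mcm7 at 1.13.

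Histone and chromatin genes rose with them. Of 25 tested genes named Hist, 24 were higher and none lower, and their summed level was between 7.52 and 12.8 times that of the non-cycling cells of the same pool. Hist1h3c, a replication-dependent H3 gene in the cluster on chromosome 13 (from 23744973 to 23745602), was at 295, 185, 166 and 115 CPM against 7.49, 0.837, 7.76 and 3.04 CPM (5.38 ± 0.24 on the log2 scale). Copies of this family are nearly identical, so reads may be split among them. All 14 genes of the chromatin and tubulin list were higher, with a median of 0.92. H2afz, the variant H2A.Z, rose 2.41-fold from a mean of 1040 ± 150 to 2579 ± 475 CPM (SD, n = 4 pools), Tuba1b, an alpha-tubulin, 3.31-fold, Tubb5 1.80-fold and Hmgb1 1.70-fold.

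**Figure D2:**
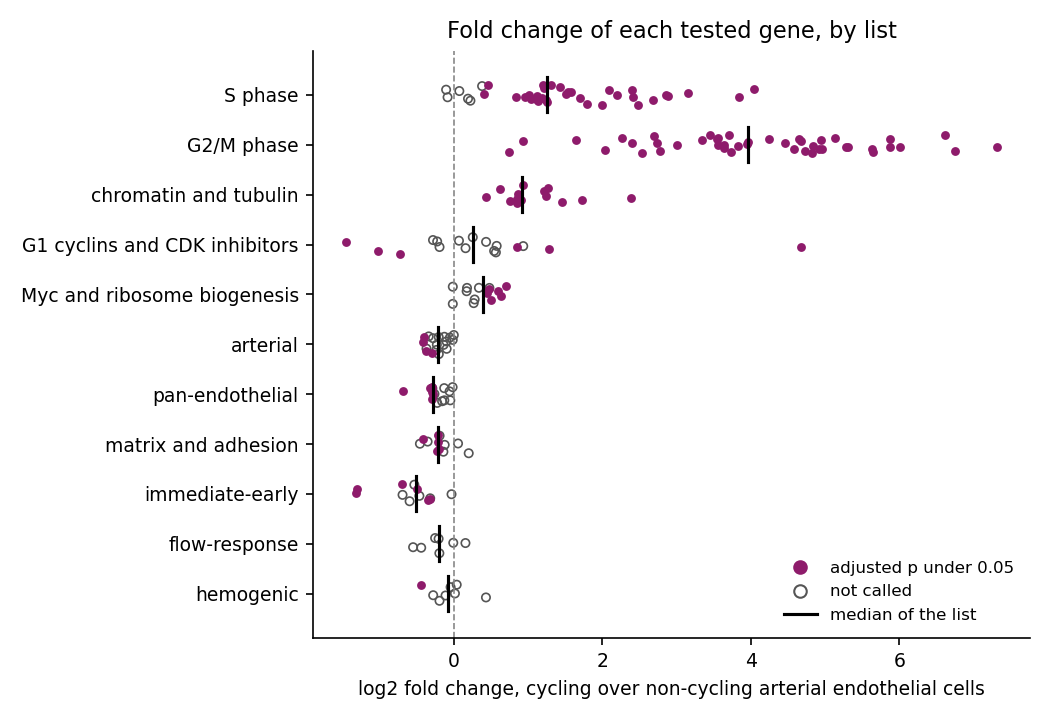
Each point is 1 tested gene of the named list, with its log2 fold change in cycling over non-cycling AECs on the x axis; filled points had an adjusted p under 0.05 and bars mark the list medians. The cell cycle lists lie to the right of 0, with medians of 3.96 for G2/M and 1.26 for S phase, and the arterial, pan-endothelial, matrix and immediate-early lists have medians between −0.51 and −0.21.

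The genes that hold back or start the cycle were split. Of the 17 tested genes of the list of G1 cyclins, cyclin-dependent kinase inhibitors and their E2F partners, 3 rose and 3 fell. Cdkn1c, the inhibitor p57, on chromosome 7 from 143458339 to 143461050, was at 770, 795, 488 and 641 CPM in cycling cells and at 1097, 1385, 929 and 943 CPM in non-cycling cells. It was lower in 4 of 4 pools and the classes did not overlap, a change of −0.73 ± 0.07 on the log2 scale (1.65-fold lower, adjusted p = 8.5e-13). Ccnd2, a G1 cyclin, was at 77.5, 83.0, 153 and 73.0 CPM against 218, 159, 217 and 127 CPM and was also lower in all pools (−1.01 ± 0.14, adjusted p = 4.3e-08). Trp53inp1, a target of p53, was lower at −1.45. The inhibitor Cdkn2d (p19) rose by 1.28 ± 0.18, from 31.8, 34.3, 31.0 and 43.3 to 79.8, 67.3, 116 and 104 CPM, and Cdkn1b (p27) by 0.86. E2f8, an E2F repressor made late in the cycle, was at 34.8, 31.5, 18.5 and 23.6 CPM against at most 2.28 CPM (4.67 ± 0.53). None of Cdkn1c, Ccnd2, Cdkn2d and E2f8 lost its call in the alternatives in which it was tested. A gene that did not pass the filter on low counts in an alternative was not tested there.

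The largest called falls were smaller than the rises. Mxd4, a MAX partner that opposes Myc, was at 32.6, 18.6, 13.2 and 25.9 CPM in cycling cells and at 85.2, 72.8, 45.0 and 70.6 CPM in non-cycling cells, 3.08-fold lower with no overlap (−1.62 ± 0.21 on the log2 scale, adjusted p = 1.3e-08). Dusp2, a nuclear MAP kinase phosphatase, was at 22.5, 30.1, 21.1 and 49.5 CPM against 44.9, 83.7, 82.2 and 93.4 CPM (−1.31 ± 0.20), lower in every pool although its ranges overlap. Hes6, a Hes family factor, fell by 0.91 on the log2 scale, Cpxm1, a carboxypeptidase-like secreted protein, by 0.95 and Cd59a, which restrains complement, by 1.01. Hspa1a, a heat-inducible chaperone, stood at 29.2 and 34.3 CPM in the cycling cells of replicate 1 and at 346 and 374 CPM in those of replicate 2. It was lower than in non-cycling cells (87.1, 537, 138 and 618 CPM) in each pool. Its call was lost without the pool block and with 4 of the other ways of choosing cells. Acaa1a, a peroxisomal thiolase, fell by 0.95. Clec2d, a lectin, and the genes 6330403K07Rik and 8430408G22Rik fell by 0.94, 1.10 and 1.10. DESeq2 did not call Clec2d (adjusted p = 0.17), Hes6 (0.11) or 6330403K07Rik (0.070). Without the pool block, Clec2d (adjusted p = 0.054) and 8430408G22Rik (0.37) lost their calls. Sums of thinned cells did not call 6330403K07Rik, Cd59a or Acaa1a (adjusted p = 0.082, 0.065 and 0.16). The call of 8430408G22Rik was lost at 100 CPM (0.30), and that of Clec2d without cells holding a Gfi1 or Neurl3 UMI (0.087).

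Immediate-early genes, which a stimulus or tissue handling switches on within minutes, were called in part. Of 12 tested, 6 fell and none rose (median −0.51). Zfp36, which destabilises AU-rich mRNAs, was at 16.9, 17.2, 23.7 and 23.6 CPM against 49.6, 31.0, 48.1 and 69.1 CPM (−1.32 ± 0.24, adjusted p = 2.2e-05). Egr1, a zinc finger factor, was at 43.8, 7.16, 34.3 and 30.6 CPM against 93.6, 17.6, 160 and 35.7 CPM (−1.30 ± 0.22). Its level varied widely between pools, and its call was lost without the pool block and without cells holding a Gfi1 or Neurl3 UMI, where the change was −0.39. Ier3 fell by 0.70 ± 0.12 and Jund by 0.32 ± 0.07. DESeq2 called 3 of the 12, the fit without the pool block 2, the 100 CPM limit 3, and the fit without cells holding a Gfi1 or Neurl3 UMI 3.

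A minority of arterial genes were lower in cycling AECs. Of 18 arterial genes outside the limits, 4 fell and none rose, with a median of −0.21 and 17 of 18 fold changes below 0. Nrp1, the neuropilin of arterial endothelium, on chromosome 8 from 128358604 to 128503363, was at 957, 723, 934 and 777 CPM in cycling cells and at 1188, 955, 1280 and 994 CPM in non-cycling cells, lower in 4 of 4 pools (1.34-fold, −0.42 ± 0.06 on the log2 scale, adjusted p = 3.6e-07). Gja4 was at 1198, 1446, 1034 and 1435 CPM against 1261, 1891, 1125 and 1909 CPM (−0.29 ± 0.06, adjusted p = 0.00018). The ranges of the classes overlap in both genes, so the difference is one within pools. Mecom, a factor of arterial and stem cells, changed by −0.37 ± 0.11 and Dll4 by −0.40 ± 0.15 (adjusted p = 0.0499). The call of Dll4 was lost in 12 of 15 alternatives. The arterial summed level was 4088 to 4487 CPM in cycling and 4655 to 5332 CPM in non-cycling sums, so its ranges did not overlap. Of the 18, 0 were called without the pool block, 1 by DESeq2 and without cells holding a Gfi1 or Neurl3 UMI, and 2 without control replicate 2.

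Of 16 pan-endothelial genes 7 fell and none rose (median −0.27). Ramp2, the adrenomedullin receptor subunit, was at 2213, 3160, 1915 and 3458 CPM against 2815, 3729, 2538 and 3836 CPM (−0.32 ± 0.05, adjusted p = 6.5e-07). Cldn5 and Esam, proteins of the tight junction, both changed by −0.30, and Sox7, a SoxF factor, by −0.68 ± 0.18. Of the 16, 1 was called without the block, 2 by DESeq2 and 4 without control replicate 2. Of 12 matrix and adhesion genes 5 fell (median −0.21): Sparc, a collagen-binding matrix protein, by 0.41 ± 0.05, and Fn1, Col4a1, Col4a2 and Col18a1 by 0.20 to 0.22 on the log2 scale. Of the 12, 0 were called without the block, 1 by DESeq2, and 2 without either control replicate 2 or cKO replicate 2. Of 5 tested intermediate filament genes Vim, vimentin, fell by 0.28 ± 0.05, and the call was lost without the block (adjusted p = 0.40) and with the other cycling genes Ccna2, Cdk1, Birc5 and Ube2c (−0.15). Krt18, named after its values were seen because Krt8 pairs with it, was at 52.8, 65.9, 58.0 and 49.5 CPM against 82.4, 74.5, 102 and 50.1 CPM (−0.46 ± 0.17, adjusted p = 0.063), which did not pass the test.

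Of 14 tested genes of the Myc and ribosome biogenesis list, which serve growth, 6 rose and none fell (median 0.39), and 8 were not called. Ncl, nucleolin, was at 952, 769, 1024 and 714 CPM against 697, 540, 833 and 444 CPM (1.36-fold, 0.44 ± 0.07 on the log2 scale, adjusted p = 1.3e-06), higher in 4 of 4 pools although the ranges overlap. Nop58 and Nop56, of the particle that methylates ribosomal RNA, rose by 0.71 ± 0.14 and 0.60 ± 0.13, and Pa2g4 by 0.47 ± 0.12. DESeq2 called 2 of these 14 genes, the fit without the block 1 and that without control replicate 2 called 3.

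**Figure D3:**
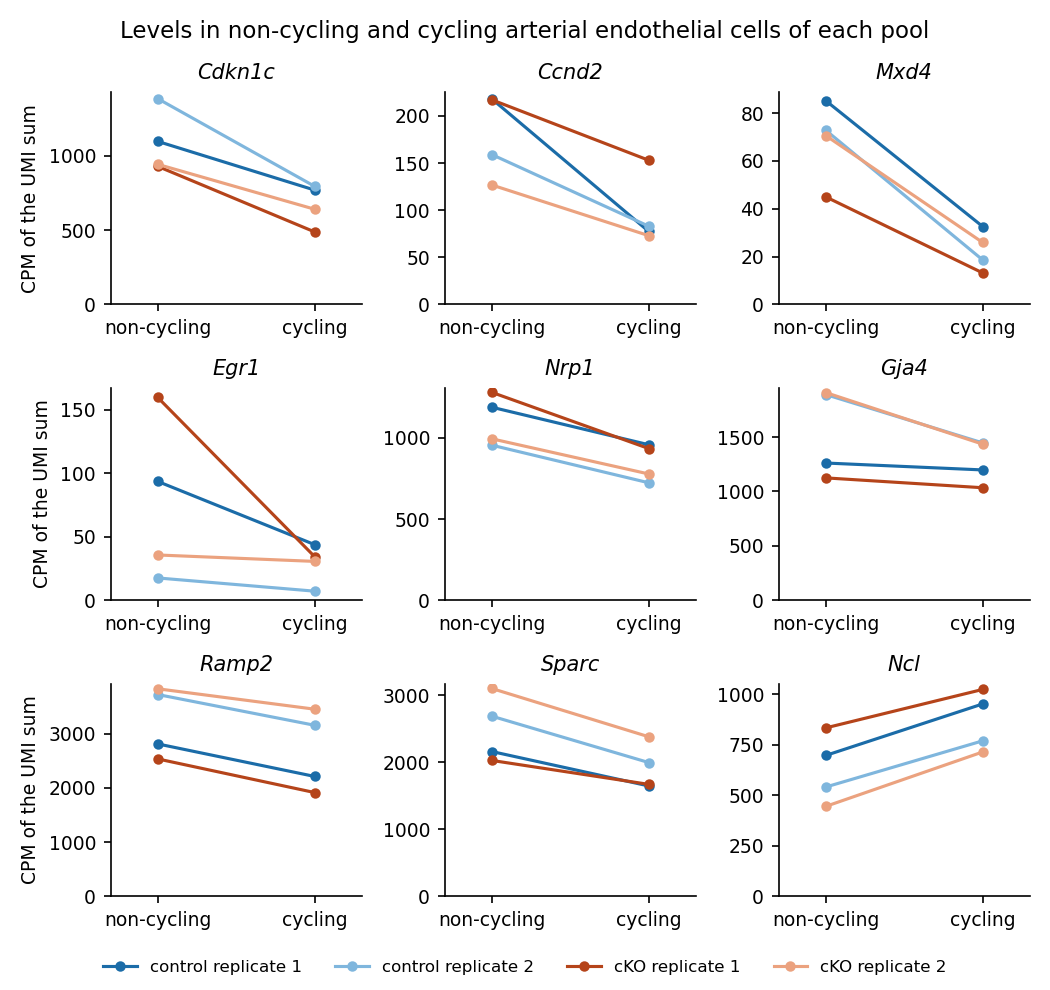
Each panel gives a gene's CPM in the UMI sum of non-cycling (left) and cycling (right) AECs, with 1 line for each of the 4 pools and a y axis from 0. All lines fall for Cdkn1c, Ccnd2, Mxd4, Egr1, Nrp1, Gja4, Ramp2 and Sparc and rise for Ncl, while the pools lie at different heights.

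Other lists held few called genes. Of 8 tested hemogenic genes, Procr, the protein C receptor, fell (174, 189, 127 and 115 against 215, 210, 155 and 229 CPM; −0.44 ± 0.12), a call lost in 6 alternatives, among them DESeq2 (adjusted p = 0.27), the fit without the block (0.18) and that without cKO replicate 2 (−0.30, adjusted p = 0.13). Runx1 had a UMI in 16 of 84 members and 33 of 189 non-cycling cells (19.0% and 17.5%). None of 7 flow-response genes was called. Klf2, the shear stress factor, was at 534, 677, 628 and 1392 CPM against 768, 712, 430 and 1127 CPM (−0.01 ± 0.19). It was lower in cycling cells in both control pools and higher in both cKO pools. Edn1, endothelin, changed by −0.55 ± 0.33 (adjusted p = 0.44). Without control replicate 2, the one pool in which Edn1 was higher in cycling cells (382 against 291 CPM), it was called at −0.88 (adjusted p = 2.4e-08). Of the venous genes Ephb4 and Flt4 could be tested, at −0.04 ± 0.17 and −0.03 ± 0.24. Hbb-y, an embryonic globin, was at 13.5, 28.6, 5.28 and 7.07 CPM against 35.6, 72.8, 4.65 and 9.11 CPM (−1.23 ± 0.29), a difference seen in 3 of 4 pools. The call was lost in DESeq2 (adjusted p = 0.56), without the block (0.64) and at 500 CPM (0.060). Pf4 of megakaryocytes was at 36.3 ± 38.3 and 38.1 ± 38.8 CPM (SD, n = 4) in the classes. Xist, the only tested gene of the sex-linked list, was at 692, 349, 0 and 240 CPM against 451, 314, 0 and 189 CPM. It was called higher in cycling cells (0.36 ± 0.11, adjusted p = 0.013). That call was lost in 6 alternatives, among them DESeq2 (adjusted p = 0.45) and the fit without the block (0.91).

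Cycling in AECs was compared with that in plexus endothelial cells, which passed the same Cdh5 and C1q limits without both hemogenic markers, had more plexus than arterial UMIs whatever their Gja5, and were split at the same 200 CPM. There, 1922 of 8727 genes (22%) differed between the classes, 917 higher (10.5%) and 1005 lower (11.5%). Called in both classes were 691 genes, 64.6% of those of AECs and 36.0% of those of plexus cells, 680 of them in the same direction. Markers of vessel identity differed between the plexus classes too. Of 17 tested arterial genes 10 were lower in cycling plexus cells and none higher (median −1.29), and of 5 venous genes 3 were higher (median 1.43). The test of the difference between the effects called 170 of 8795 genes (1.93%), of which 136 (1.55%) had the higher and 34 (0.387%) the lower effect in AECs. Among G2/M genes 22 of 49 had a larger rise in AECs (median difference 1.44), as did 3 of 40 S phase genes. All 18 arterial genes had a difference above 0 (median 1.00), of which 3 were called, and the part of vessel identity in the differences of other genes was not tested. Nusap1 rose by 6.61 in AECs and 3.96 in plexus cells, and Tpx2 by 4.46 and 2.64. Non-cycling plexus cells had a higher level of both (a mean of 8.28 CPM of Nusap1 and 31.2 CPM of Tpx2) than non-cycling AECs, in which Nusap1 was at most 3.04 and Tpx2 at most 15.1 CPM. The part of that level in the smaller plexus effects was not tested. Cdkn1c fell by 0.73 in AECs and by 1.87 in plexus cells, a difference of 1.12 ± 0.13 (adjusted p = 8.3e-06). The fall of Ccnd2 was larger in AECs, at −1.01 against −0.22 (difference −0.80 ± 0.21, adjusted p = 0.034). The count of 170 ranged from 35 to 605 over the alternatives, so the number of genes is not settled.

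**Figure D4:**
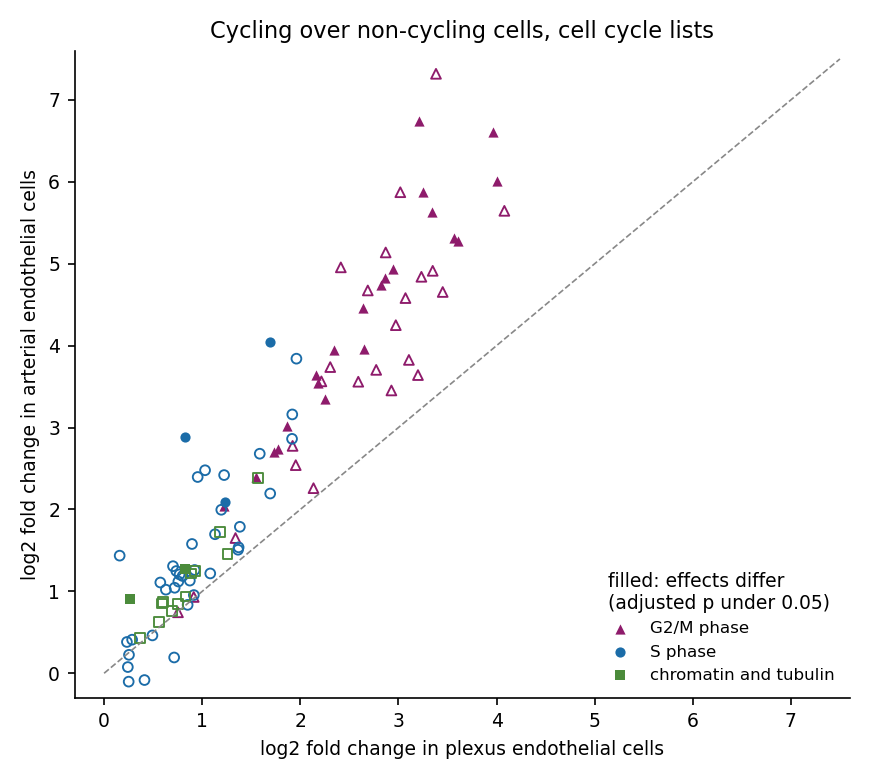
Each point is 1 gene of a cell cycle list, with the log2 fold change of cycling over non-cycling cells in plexus endothelial cells on the x axis and in AECs on the y axis; the dashed line marks equal effects and filled points had effects that differed (adjusted p under 0.05). Of the G2/M genes 44 of 45 lie above the line, as for Nusap1 at 3.96 and 6.61.

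The share of cycling AECs at the 200 CPM limit overlapped between the control and cKO pools. It was 37.2% (exact binomial 95% interval 27.0 to 48.3) and 32.4% (21.8 to 44.5) in control replicates 1 and 2, and 36.2% (22.7 to 51.5) and 17.4% (9.32 to 28.4) in cKO replicates 1 and 2. The means were 34.8 ± 3.40% and 26.8 ± 13.3% (SD, n = 2), a difference of −8.02 points (two-sided exact permutation test, p = 0.667; 2 against 2 cannot go below 0.33). The binomial intervals cover counting error only. Within replicates the difference was −1.04 and −15.0 points, and without cKO replicate 2 it was +1.37 points. With cells chosen by Ccna2, Cdk1, Birc5 and Ube2c, the shares were 48.8 and 42.3% in control and 34.0 and 34.8% in cKO pools. This difference was −11.1 points (exact permutation p = 0.33). It was −12.7 points with cells thinned before the limit, −11.0 under the authors' cell limits and −11.9 without cells holding a Gfi1 or Neurl3 UMI. Each had the same p. At 100 and 500 CPM it was −10.0 and −7.14 points (exact permutation p = 0.667).

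The share of cells at or over the 200 CPM limit was lower in AECs than in EHT cells, which held UMIs of both Gfi1 and Neurl3, in 4 of 4 pools. The EHT shares were 42.6, 47.2, 52.3 and 41.7%, and the differences −5.38, −14.8, −16.1 and −24.3 points, with a mean of −15.2 (exact paired permutation test, p = 0.125, the smallest possible). EHT cells had medians of 50492.5 to 54328 UMIs against 20312 to 25111 in AECs. With cells thinned to 10000 UMIs the mean was −20.3 points, and at a limit of 500 CPM it was −4.41 points (exact permutation p = 0.5), with AECs above EHT cells in both control pools (by 4.31 and 0.274 points) and below them in both cKO pools. Plexus cells, at 32.1, 25.0, 50.8 and 30.4%, lay below AECs in the control pools and above them in the cKO pools (mean difference −3.79 points, exact permutation p = 0.5).

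**Figure D5:**
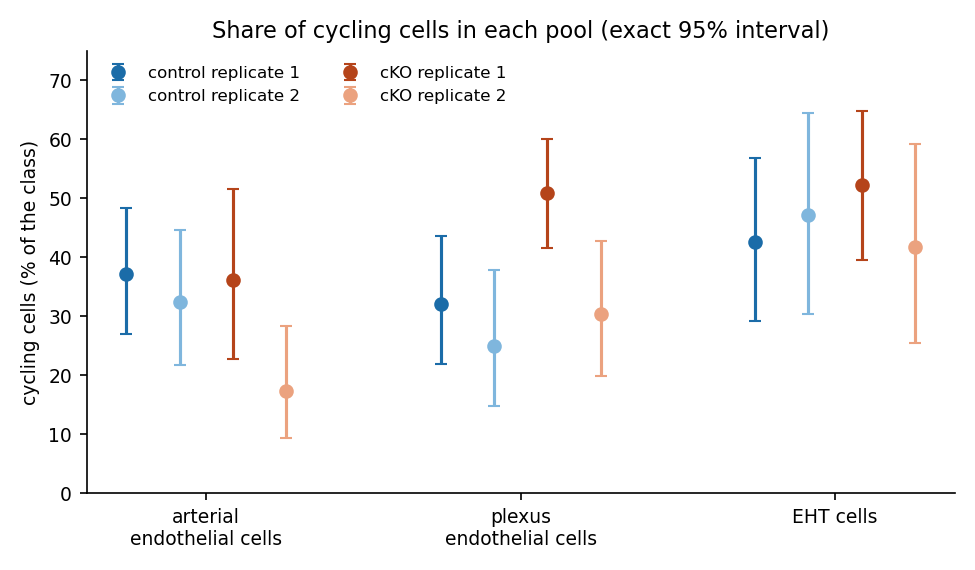
The y axis gives the percentage of cells at or over 200 CPM of Mki67, Top2a and Cenpf in AECs, plexus endothelial cells and EHT cells, with 1 point for each pool and its exact binomial 95% interval. The AEC share of cKO replicate 2, at 17.4%, is the lowest of the 12, and all EHT shares lie at or above 41.7%.

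Nupr1, the targeted gene, was scarce in these cells. Cycling AECs held 4 and 14 Nupr1 UMIs in the controls (4.49 and 20.0 CPM, in 3 and 3 cells) and 0 and 0 in the cKO pools, where a count of 0 allows up to 7.91 and 7.07 CPM. Over the groups the control level was at least 3.04-fold higher than the limit that 3 counts set in cKO. Of the 18 control UMIs 14 came from 3 cells of control replicate 2; without that pool the bound is 1.20-fold, and the 4.49 CPM of control replicate 1 lies below the limits of both cKO pools. Non-cycling cells held 5 and 18 UMIs in controls and 0 and 1 in cKO pools. The gene did not pass the filter on low counts in the tests of cycling and of genotype within cycling AECs. In edgeR's test of a genotype difference in the effect of cycling it was not called (−2.17 on the log2 scale, adjusted p = 0.9999).

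Within cycling AECs, edgeR without a replicate block called no gene between cKO and control (0 of 6519 or 0%). The unadjusted p was under 0.05 for 139 genes (2.13%), and for 331 genes with the replicate as a block. DESeq2, also without the block, called none (19 at an unadjusted p under 0.05). Cdkn1c was at 770 and 795 CPM in control and 488 and 641 CPM in cKO pools, and Hmgb2 at 2064 and 1831 against 1551 and 1706 CPM. Neither was called by edgeR, at −0.46 ± 0.27 (unadjusted p = 0.092) and −0.25 ± 0.26 (unadjusted p = 0.35) on the log2 scale. The share of all genes whose pools separate by genotype in this way was not computed. In the S phase list 35 of 40 and in the G2/M list 35 of 47 fold changes were below 0, with medians of −0.25 and −0.12 against 0.01 over all genes, and none of them was called. Of the immediate-early genes 11 of 12 were above 0 (median 0.35) and none was called. With the replicate as a block, Tagln, an actin-binding protein of smooth muscle, was called (2.68 on the log2 scale, adjusted p = 0.00017), with 37.1 and 12.9 CPM in control and 245 and 75.4 CPM in cKO pools. The cKO pool of replicate 1 also held the muscle actin Actc1 at 71.2 CPM, and the part of muscle or mesenchymal RNA in the result was not tested. For a genotype difference in the effect of cycling, edgeR called none of 8051 genes (0%, with 379 at an unadjusted p under 0.05). DESeq2 called none either (25 at an unadjusted p under 0.05). Klf2 lay near the threshold in edgeR (0.66 on the log2 scale, cKO minus control, adjusted p = 0.052). It was called in edgeR without the low-count filter (0.65, adjusted p = 0.025) and without cells holding a Gfi1 or Neurl3 UMI (1.04, adjusted p = 0.00021).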

How the data were processed

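The authors processed reads with Cell Ranger 5.0.1 (mm10, per the labels), kept cells that HTODemux of Seurat assigned to 1 hashtag, and deposited unnormalized UMI counts per cell (24543 genes) together with the hashtag. The annotation is not given in the sources used here. Gene coordinates are those of GENCODE on GRCm38, matched by symbol. Their cell limits were not met by 101 of the 2139 cells, 13 of them members, and all were kept. The libraries held 32430285 and 91511039 UMIs.

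The members and lists were chosen with earlier results of these data known. UMIs were summed per pool and class and tested in edgeR 4.0.16 (R 4.3.3; filterByExpr, TMM, robust quasi-likelihood test, Benjamini-Hochberg over all genes, threshold 0.05). Cycling and non-cycling sums of a pool were paired by the block. Two-sided exact permutation tests over pools served for shares, with exact binomial 95% intervals (SciPy 1.17.1). Genotypes of a replicate shared a lane, so replicate numbers pair them (deviations of paired sums correlated at r = 0.306 across genes, which are not independent replicates). The main genotype tests of genes in cycling AECs and of shares did not use this pairing, and a replicate block was an alternative. Alternatives were DESeq2 1.42.0, scaling by RLE, leaving out the low-count filter or each pool in turn, other limits or cycling genes (Ccna2, Cdk1, Birc5 and Ube2c), the authors' cell limits, and leaving out cells with a Gfi1 or Neurl3 UMI. Summing after thinning was added after the data were seen. The procedure was tested on simulated sums. The 12 largest rises and falls past the threshold at 50 CPM or more with the same sign in all pools were named, with up to 4 called genes of each list, or its 2 most abundant. Genes given only as list examples or uncalled members were named after their values were seen.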

Additional observations from a re-analysis of the deposited data

Results flagged for a closer look

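The effect of cycling differed between AECs and plexus endothelial cells in 16 of the named genes by edgeR's test of the difference (adjusted p under 0.05). These genes were named largely for their change in AECs, so their number is not set against other genes. In log2 units, AEC minus plexus, the difference was 3.63 for Ckap2l, 2.82 for Kif4, 2.69 for Nusap1, 2.66 for Aurkb, 2.34 for Kif2c, 2.02 for Prc1 and 1.82 for Tpx2, all genes of the mitotic spindle or kinetochore. It was 2.31 for the histone gene Hist1h3c, 2.37 for Rad51ap1, 0.95 for Cks2, 0.94 for Hmgb2, 0.84 for Tyms and 0.42 for H2afz. It was 1.12 for Cdkn1c and 0.87 for Dll4, which both fell less in AECs (in cycling plexus cells 10 of 17 arterial genes were lower, median −1.29, and 3 of 5 venous genes higher, median 1.43), and −0.80 for Ccnd2, which fell more.

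The difference in the share of cycling cells between AECs and plexus cells was positive in both control pools (5.16 and 7.39 points) and negative in both cKO pools (−14.6 and −13.0 points). The means differ by −20.1 points between genotypes (two-sided exact permutation test, p = 0.33, the smallest that 2 against 2 allow). Plexus cells of cKO replicate 1 had the highest share (50.8%) and, among plexus pools, the highest median of 41190 UMIs per cell. With cells thinned to 10000 UMIs, and the classes still set on full counts, the signs stayed as they were, at 10.4 and 7.49 points in control and −26.8 and −15.6 points in cKO pools.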

How the results depend on the processing

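Of 1020 values of 69 named genes under the alternatives, 892 kept their direction and side of the threshold, 106 fell short of it, 4 newly passed it and 18 changed sign, none of these past the threshold. On the log2 scale, Ephb4 was 0.0156 with cells thinned before the limit, 0.0171 under the authors' cell limits and −0.16 to 0.0293 with a pool left out. Flt4 was 0.0366 in DESeq2, 0.16 and 0.0893 at 100 and 500 CPM, 0.0149 under the authors' limits, 0.30 without cells holding a Gfi1 or Neurl3 UMI and −0.20 to 0.27 with a pool left out. Klf2 was 0.0274 in DESeq2, 0.0318 with no replicate block, 0.00923 and 0.0741 at 100 and 500 CPM and −0.13 to 0.18 with a pool left out. Pf4 was 0.0316 from thinned cells and Tagln −1.27 to 0.0766 with a pool left out. Genes called between cycling and non-cycling AECs numbered 1069, but 459 in DESeq2, 431 with no replicate block, 688 without cells holding a Gfi1 or Neurl3 UMI, 486 from thinned cells, and 751 to 1108 with a pool left out. Between genotypes 0 genes became 3 without the low-count filter (Tagln, Gm6654 and Eif2s3y), 1 with the replicate block, and 1, 6, 7 and 10 without control replicates 1 and 2 and cKO replicates 1 and 2. For the genotype difference in the effect of cycling 0 became 3 without the filter, 5 with cells thinned before the limit, 5 with the other cycling genes, 3 without cells holding a Gfi1 or Neurl3 UMI, and 3 to 15 with a pool left out (3, 5, 15 and 9 in the same order). The 170 genes that differed between AECs and plexus cells became 348 without the filter, 91 in DESeq2, 568 at 100 CPM, 370 with cells thinned before the limit, 605 with the other cycling genes, 35 from thinned cells, and 60 to 256 with a pool left out. The genotype difference in share was 1.37 points without cKO replicate 2 (−17.4 to 1.37 with a pool left out), and AEC minus plexus was 0.367 points at 500 CPM. The causes were not tested, apart from fewer cells or genes where an alternative removes them. The pairing changed no other call between genotypes. With 12 to 32 cells in a cycling sum and 379079 UMIs in the smallest, genotype differences in single genes may be missed at this depth.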
